A study of Homo sapiens with 22 samples.

Results

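The genes described here are receptor tyrosine kinases that can signal beside the epidermal growth factor receptor (EGFR), with 1 of their ligands: AXL, its ligand GAS6 and its relative TYRO3, MET and its relative MST1R, the fibroblast growth factor receptors FGFR1, FGFR3 and FGFR4, and the ephrin receptor EPHA2. They were chosen by symbol, and all 9 had a row among the 17165 genes of the deposited expression table and were among the 15485 genes tested. The study followed PC9, a human cell line established from a lung adenocarcinoma whose growth is driven by mutant, activated EGFR, and derivatives of it that survive EGFR inhibition. Gefitinib is a reversible EGFR inhibitor, and WZ4002 is a covalent one. RNA was measured in 22 libraries, 2 in each of 11 groups, after 24 h of treatment. Parental PC9 cells received vehicle, gefitinib or WZ4002. PC9-GR2 and PC9-GR3 cells (GR2 and GR3) received vehicle or WZ4002, gefitinib-tolerant PC9 cells received vehicle or gefitinib, and WZ4002-tolerant PC9 cells received vehicle or WZ4002. The labels give 1 mM for both inhibitors, a unit that is in doubt. How GR2, GR3 and the tolerant cells were derived, whether any is a single clone, and how long tolerant cells had been off drug when given vehicle are not given in the sources used here.

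Receptor tyrosine kinases of this kind bind a ligand outside the cell, pair up and feed the same RAS-ERK and PI3K-AKT cascades that EGFR feeds, so an active one can keep a cell growing while EGFR is blocked. AXL, TYRO3 and MERTK form the TAM family, whose ligands are GAS6 and protein S. MET binds hepatocyte growth factor and MST1R (also called RON) binds macrophage-stimulating protein, and amplified MET and raised AXL are known routes by which EGFR-mutant lung cancers escape EGFR inhibitors. EPHA2 binds ephrin-A ligands on neighbouring cells and also has ligand-independent activity in tumour cells.

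The 250 bases before the transcription start of 4 of the genes are shown, since EPHA2 and MET fell and FGFR3 rose with the inhibitors in parental cells and AXL differed widely between populations. They come from RefSeq on build GRCh38.p14, matched by symbol, and 8 of the 9 genes had an entry; FGFR1 is named only. Capitals mark matches on either strand to AP-1 (TGANTCA), TEAD (GGAATG), FOXO (GTAAACA) or SP1 (GGGCGG) motifs. AXL has a second start in the table, which is not printed.
AXL chr19:41218973-41219222, plus strand: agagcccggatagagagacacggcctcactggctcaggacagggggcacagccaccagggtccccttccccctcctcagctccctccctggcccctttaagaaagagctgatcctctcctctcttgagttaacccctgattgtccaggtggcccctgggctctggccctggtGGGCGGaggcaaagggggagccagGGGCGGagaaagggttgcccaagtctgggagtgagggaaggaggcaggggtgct
MET chr7:116671946-116672195, plus strand: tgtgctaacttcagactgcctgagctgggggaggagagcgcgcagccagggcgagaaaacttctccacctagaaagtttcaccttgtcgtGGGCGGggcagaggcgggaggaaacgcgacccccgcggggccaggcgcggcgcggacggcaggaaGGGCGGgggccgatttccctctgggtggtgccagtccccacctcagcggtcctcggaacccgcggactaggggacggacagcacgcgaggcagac
FGFR3 chr4:1793043-1793292, plus strand: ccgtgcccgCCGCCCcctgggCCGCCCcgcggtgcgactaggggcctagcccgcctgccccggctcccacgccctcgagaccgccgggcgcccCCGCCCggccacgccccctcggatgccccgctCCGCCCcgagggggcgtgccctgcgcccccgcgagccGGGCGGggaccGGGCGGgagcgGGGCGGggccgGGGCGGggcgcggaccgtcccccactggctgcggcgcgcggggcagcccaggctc
EPHA2 chr1:16156070-16156319, minus strand: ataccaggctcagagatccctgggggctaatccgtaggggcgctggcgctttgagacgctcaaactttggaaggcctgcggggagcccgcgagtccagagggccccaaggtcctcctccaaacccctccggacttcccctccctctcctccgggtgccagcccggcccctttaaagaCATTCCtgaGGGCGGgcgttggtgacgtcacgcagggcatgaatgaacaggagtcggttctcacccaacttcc
The FGFR3 window holds 8 SP1 matches, AXL and MET hold 2 each, and EPHA2 holds 1. EPHA2 also holds a TEAD match that begins 73 bases before the start. The window of the second AXL start, not printed, holds a TEAD match as well, 212 bases before that start. Of all promoter windows of this length in the table, 42.6% hold the SP1 letters, 11.9% the TEAD letters, 6.57% the AP-1 letters and 2.98% the FOXO letters. Over the 8 genes the AP-1 letters were found in 1 window, that of TYRO3, 220 bases before its first start, and the FOXO letters in none. These matches describe the letters and were not set against the expression values.

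Levels are in CPM, in which each gene's read count is divided by its library's total and put on a common scale. Libraries held 23.6 to 49.6 M reads, and the lowest value of any of the 9 genes, FGFR3 in GR2 cells on vehicle, rested on 18 reads. The 2 libraries of a group were not copies of each other in any group. The labels do not say whether the libraries of a group are separate cultures, so the spread behind each p-value may be technical alone. All 8 epithelial markers had a row (NKX2-1, the lung lineage factor, at 0.080 to 1.7 CPM), with a sum of 2961 to 8945 CPM. Of 10 markers of leukocytes, endothelium and fibroblasts, 6 had a row, with a sum of 13.5 to 55.1 CPM, and PTPRC, CD3E, PECAM1 and DCN were not analysed here. DUSP6, a phosphatase induced by ERK activity, fell with the inhibitor in each of the 6 drug comparisons, with log2 differences of -7.15 to -3.09. A difference in a bulk sample cannot tell a change in each cell from a change in the share of cells that express the gene.

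EPHA2 and MET fell and FGFR3 rose with the inhibitors in parental cells, while AXL, GAS6 and FGFR1 were higher in GR3 and both tolerant populations than in parental cells on vehicle. Differences are of log2(CPM + 1), which understates changes of low genes, from limma fits over all genes, and every adjusted p is limma's after Benjamini-Hochberg adjustment with a threshold of 0.05. Under gefitinib in parental cells 3 of the 9 genes were higher and 5 lower, beside 23.5% and 21.8% of all genes tested (45.3% in either direction). Parental WZ4002 gave 3 higher and 6 lower (all genes 25.1% and 22.3%, together 47.5%). In GR2 cells WZ4002 gave 2 higher and 6 lower (all genes 27.4% and 28.3%, together 55.7%). In GR3 cells it gave 2 higher and 3 lower (all genes 12.1% and 9.87%, together 22%). Gefitinib-tolerant cells gave 2 higher and 3 lower with gefitinib (all genes 15.2% and 13.6%, together 28.7%), and WZ4002-tolerant cells 1 higher and 3 lower with WZ4002 (all genes 17% and 15.6%, together 32.6%). The median difference of the 9 genes ran from -1.44 to -0.25 over these comparisons, against 0.01 to 0.04 for all genes tested. With so many genes called, the counts describe the 9 genes and were not tested against the rest.

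**Figure D1:**
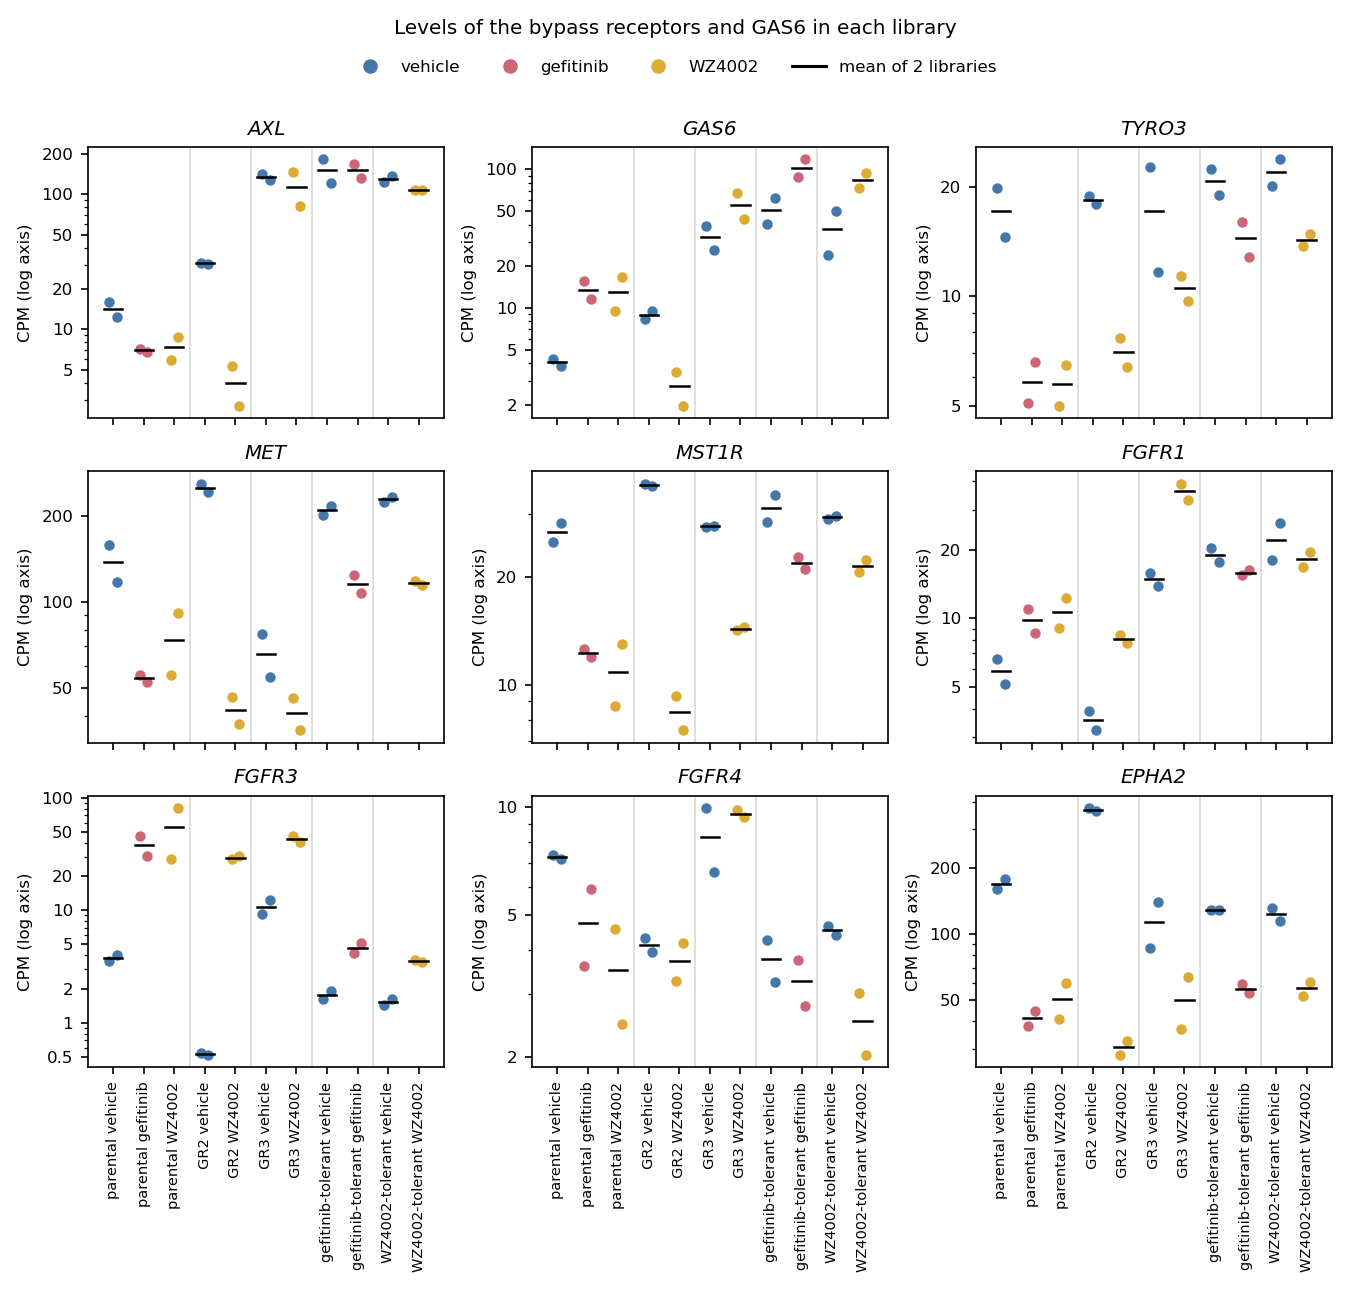
CPM of each gene in each library (log axis, points are libraries, bars the mean of 2 libraries), by population and treatment. AXL and GAS6 are highest in GR3 and tolerant cells, and FGFR3 is high under drug in parental, GR2 and GR3 cells.

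GAS6, the secreted ligand of the TAM receptors, was higher in GR3 and both tolerant populations than in parental cells, and in parental cells it rose with either inhibitor. In parental cells GAS6 was at 4.32 and 3.79 CPM with vehicle, 15.5 and 11.6 with gefitinib and 9.58 and 16.7 with WZ4002. GR2 cells held 8.29 and 9.55 CPM with vehicle and 3.48 and 1.96 with WZ4002. In GR3 cells the values were 39.1 and 26.3 with vehicle and 67.5 and 44.1 with WZ4002. So GR2 was the single population in which the WZ4002 libraries lay below the vehicle libraries. Gefitinib-tolerant cells held 40.4 and 62.0 CPM with vehicle and 88.1 and 118 with gefitinib. WZ4002-tolerant cells held 24.1 and 50.1 with vehicle and 73.7 and 94.8 with WZ4002. In both tolerant populations the libraries on drug lay above those on vehicle. The group means ran from 103 ± 21.2 CPM (SD, n = 2) in gefitinib-tolerant cells on gefitinib to 2.72 ± 1.07 in GR2 cells on WZ4002. Next to the highest group came WZ4002-tolerant cells on WZ4002, whose libraries overlapped with it, and the libraries of GR3 and tolerant cells all lay above those of parental and GR2 cells.

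With vehicle, mean GAS6 was 12.6-fold higher in gefitinib-tolerant, 9.14-fold in WZ4002-tolerant and 8.06-fold in GR3 cells than in parental cells. The log2 differences were 3.34, 2.83 and 2.71 (SE 0.35 each; adjusted p 1.64e-05, 8.45e-05 and 5.88e-05), and GR2 against parental was 0.97 (adjusted p 0.0657; 1.12 and 0.0473 with a pseudocount of 0.1). GAS6 rose by 1.52 with gefitinib and by 1.44 with WZ4002 in parental cells (adjusted p 0.00239 and 0.00326), and by 1.01 and 1.24 in the gefitinib- and WZ4002-tolerant cells (0.0389 and 0.0136). In GR2 cells GAS6 fell by 1.44 (adjusted p 0.00233). The GR3 difference was 0.75 (adjusted p 0.131). The call in gefitinib-tolerant cells was lost without their vehicle replicate 1 (0.71, adjusted p 0.314) or their gefitinib replicate 2 (0.80, 0.268), and that in WZ4002-tolerant cells without their vehicle replicate 1 (0.73, 0.218) or their WZ4002 replicate 2 (1.06, 0.0891). With a term for runs of table columns the GR2 fall was -0.91 (adjusted p 0.135) and the rise in WZ4002-tolerant cells 0.98 (0.0685). Both GR2 vehicle libraries lie in the last of these runs. The libraries of GR2 cells on WZ4002 and of parental and GR3 cells on vehicle lie in earlier runs. So for all 9 genes, the GR2 drug response and the vehicle comparisons with GR2 cells lie across runs. CDH5, an endothelial cadherin listed as a marker of another cell type, was at 26.8 to 32.6 CPM in gefitinib-tolerant cells on gefitinib. It was at 14.0 and 37.2 in WZ4002-tolerant cells on WZ4002. In the other groups CDH5 lay between 1.91 and 16.1 CPM, a range that holds the lower WZ4002-tolerant value. The part of CDH5 in the GAS6 values was not tested. An antisense gene, GAS6-AS1, overlaps GAS6, and since the counting's strand setting is not given, reads of the pair may be shared.

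AXL, a receptor of GAS6, was far higher in GR3 and in both tolerant populations than in parental cells, and it fell with drug in parental and GR2 cells. Parental cells held 15.9 and 12.4 CPM with vehicle, 7.19 and 6.72 with gefitinib and 5.94 and 8.81 with WZ4002. In GR2 cells AXL was at 31.2 and 30.6 with vehicle and 5.36 and 2.69 with WZ4002. The drug libraries lay below the vehicle libraries in both populations. GR3 cells held 142 and 128 CPM with vehicle and 145 and 81.3 with WZ4002, which overlap. Gefitinib-tolerant cells held 181 and 122 with vehicle and 167 and 133 with gefitinib, which overlap as well. WZ4002-tolerant cells held 124 and 137 with vehicle and 108 and 107 with WZ4002. There the libraries on WZ4002 lay just below those on vehicle. Over the groups, means ran from 152 ± 42.0 CPM (SD, n = 2) in gefitinib-tolerant cells on vehicle to 4.03 ± 1.89 in GR2 cells on WZ4002. The 6 groups of GR3 and tolerant cells overlapped with their neighbours in this order, and the 5 parental and GR2 groups lay below all of them. Parental cells on gefitinib and on WZ4002 overlapped. An antisense gene overlaps AXL, and reads may be shared with it.

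With vehicle, mean AXL was 10.8-fold higher in gefitinib-tolerant, 9.59-fold in GR3 and 9.23-fold in WZ4002-tolerant cells than in parental cells, with log2 differences of 3.32, 3.18 and 3.13 (SE 0.27 each; adjusted p 2.46e-06, 1.36e-06 and 5.36e-06). GR2 cells were 1.09 above parental cells (adjusted p 0.0136) and 2.09 below GR3 cells (3.33e-05). AXL fell by 2.72 in GR2 cells with WZ4002 (adjusted p 1.01e-06), which is 7.67-fold in mean CPM. In parental cells it fell by 0.92 with gefitinib and 0.86 with WZ4002 (adjusted p 0.013 and 0.0173). In GR3, gefitinib-tolerant and WZ4002-tolerant cells the drug differences were -0.31, 0.00 and -0.27 (95% intervals -0.89 to 0.27, -0.58 to 0.59 and -0.85 to 0.31; adjusted p 0.45, 0.995 and 0.471). The parental falls were lost without parental vehicle replicate 1 (adjusted p 0.11 for gefitinib and 0.132 for WZ4002), without gefitinib replicate 2 (0.0652) or without WZ4002 replicate 1 (0.144). The GR2 excess over parental cells was lost without parental vehicle replicate 2 (0.116) or either GR2 vehicle library (0.0947 and 0.0727).

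TYRO3, another receptor of GAS6 and protein S, moved the other way from GAS6 in parental cells: it fell with both inhibitors there, and its vehicle levels in the derivatives were not shown to differ from parental cells. In parental cells TYRO3 was at 19.9 and 14.5 CPM with vehicle, 5.08 and 6.58 with gefitinib and 4.99 and 6.49 with WZ4002. GR2 cells held 18.9 and 18.0 with vehicle and 7.66 and 6.38 with WZ4002. In these populations the drug libraries lay below the vehicle libraries. GR3 cells held 22.6 and 11.7 with vehicle and 11.4 and 9.68 with WZ4002. Gefitinib-tolerant cells held 22.4 and 19.0 with vehicle and 16.1 and 12.8 with gefitinib. WZ4002-tolerant cells held 20.1 and 23.8 with vehicle and 13.8 and 14.9 with WZ4002. In these 3 populations as well the drug libraries lay below the vehicle libraries, by a margin of under 1 CPM in GR3 cells, whose vehicle libraries differed widely. The group means ran from 21.9 ± 2.65 CPM (SD, n = 2) in WZ4002-tolerant cells on vehicle to 5.74 ± 1.06 in parental cells on WZ4002, and the 3 lowest groups, GR2 on WZ4002 and parental cells on either inhibitor, each overlapped with the next. TYRO3 fell by 1.41 with gefitinib and 1.43 with WZ4002 in parental cells and by 1.28 in GR2 cells (SE 0.24 each; adjusted p 0.000291, 0.000244 and 0.000351). The differences in GR3, gefitinib-tolerant and WZ4002-tolerant cells were -0.59, -0.49 and -0.58 (adjusted p 0.0893, 0.135 and 0.0775). Between vehicle-treated populations its differences lay between -0.17 and 0.34, and none of the 5 passed the test.

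Of the 3 other genes of the TAM list, PROS1 (protein S) and MERTK were tested, and TULP1 was not analysed here. PROS1 was at 0.290 ± 0.0141 CPM (SD, n = 2) in parental cells and 5.20 ± 0.813 in GR3 cells on vehicle, higher by 2.26 on the log2 scale (SE 0.33, adjusted p 0.000198). It was also 2.40 higher in GR3 than in GR2 cells (adjusted p 5.63e-05), and it passed as higher in gefitinib-tolerant than in parental cells. PROS1 was thus higher in 3 of the 5 vehicle comparisons. It rose in 1 of the 6 drug comparisons, that of WZ4002-tolerant cells. MERTK, the remaining receptor of the family, fell with drug in parental cells by 1.13 (gefitinib) and 1.23 (WZ4002) and in GR2 cells by 1.40 (adjusted p 0.000549, 0.000258 and 4.61e-05). In GR3 and the tolerant cells its drug differences were -0.21, -0.02 and 0.06, and none of these passed. MERTK was lower in 2 of the 5 vehicle comparisons, WZ4002-tolerant against parental cells and GR3 against GR2 cells.

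MET, the receptor of hepatocyte growth factor, fell with the inhibitor in all 6 drug comparisons, and with vehicle it was lowest in GR3 cells. In parental cells MET was at 158 and 117 CPM with vehicle, 55.8 and 52.6 with gefitinib and 55.8 and 91.4 with WZ4002. GR2 cells held 260 and 244 with vehicle and 46.5 and 37.4 with WZ4002. The vehicle libraries of GR2 were the highest of all 22 libraries. GR3 cells held 77.6 and 54.6 with vehicle and 46.3 and 35.6 with WZ4002. Gefitinib-tolerant cells held 201 and 217 with vehicle and 124 and 108 with gefitinib. WZ4002-tolerant cells held 225 and 233 with vehicle and 118 and 114 with WZ4002. In every population the drug libraries lay below the vehicle libraries. Group means ran from 252 ± 11.4 CPM (SD, n = 2) in GR2 cells on vehicle to 40.9 ± 7.57 in GR3 cells on WZ4002. The GR2, WZ4002-tolerant, gefitinib-tolerant and parental vehicle groups followed each other without overlap, whereas GR3 cells on vehicle overlapped with parental cells on WZ4002 and on gefitinib.

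MET fell by 2.57 in GR2 cells on the log2 scale (SE 0.21, adjusted p 1.42e-07), 6.01-fold in mean CPM. Parental cells gave falls of 1.31 with gefitinib and 0.92 with WZ4002 (adjusted p 0.000191 and 0.00253), the tolerant cells 0.85 and 0.97 (0.00884 and 0.00371), and GR3 cells 0.67 (0.0349). With vehicle, MET was 0.88 higher in GR2 and 0.75 higher in WZ4002-tolerant cells than in parental cells (adjusted p 0.0109 and 0.0238). It was 1.05 lower in GR3 than in parental cells (0.00249), and gefitinib-tolerant cells differed by 0.62 (0.0549). The GR3 fall was lost without GR3 vehicle replicate 1 (-0.42, adjusted p 0.283) or WZ4002 replicate 2 (-0.48, 0.244), and the gefitinib-tolerant fall without vehicle replicate 1 (0.059) or gefitinib replicate 2 (0.101). Without parental WZ4002 replicate 1 the parental WZ4002 fall was -0.57 (0.047). The excess in GR2 cells was lost without parental vehicle replicate 2 (0.127), without either GR2 vehicle library (0.0947 and 0.0545) or with the term for column runs (0.105), and that in WZ4002-tolerant cells without parental vehicle replicate 2 (0.202) or either of their vehicle libraries (0.0824 and 0.113).

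MST1R, the receptor of macrophage-stimulating protein, fell in all 6 drug comparisons, and none of its vehicle comparisons passed the test. In parental cells it was at 25.1 and 28.3 CPM with vehicle, 12.6 and 11.9 with gefitinib and 8.75 and 13.0 with WZ4002. GR2 cells held 36.4 and 35.9 with vehicle and 9.33 and 7.47 with WZ4002. The GR2 vehicle libraries were the highest and the drug libraries among the lowest. GR3 cells held 27.6 and 27.7 with vehicle and 14.3 and 14.5 with WZ4002. Gefitinib-tolerant cells held 28.5 and 33.8 with vehicle and 22.7 and 21.1 with gefitinib. WZ4002-tolerant cells held 29.0 and 29.7 with vehicle and 20.6 and 22.4 with WZ4002. Every drug library lay below every vehicle library across the 11 groups. Group means ran from 36.2 ± 0.361 CPM (SD, n = 2) in GR2 cells on vehicle to 8.40 ± 1.32 in GR2 cells on WZ4002, and parental cells on gefitinib and on WZ4002 overlapped with each other. The falls were 1.99 in GR2 cells, 1.24 and 1.06 in parental cells with WZ4002 and gefitinib, and 0.90 in GR3 cells (SE 0.15 each; adjusted p 7.55e-08, 1.97e-05, 8.12e-05 and 0.000857). They were smaller in gefitinib-tolerant cells, at 0.49 (adjusted p 0.0279), and WZ4002-tolerant cells, at 0.43 (0.043). The former was lost without any 1 of its 4 libraries (adjusted p 0.0685, 0.163, 0.0518 and 0.185 without vehicle replicates 1 and 2 and gefitinib replicates 1 and 2), and the latter without 10 of the 22 libraries in turn (adjusted p up to 0.178, without WZ4002 replicate 1 of its own cells). None of the 5 vehicle comparisons passed, with differences between -0.37 and 0.43. Antisense genes overlap MST1R, and reads may be shared with them.

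Of 12 other genes of the MET and MST1R list (ligands, activating proteases, their inhibitors, co-receptors), 9 were tested, and HGF and HGFAC were not analysed here. With gefitinib 3 of the 9 rose and 1 fell in parental cells (all genes tested 23.5% and 21.8%). Parental WZ4002 gave 3 and 1 (25.1% and 22.3%), and GR2 cells 4 and 3 (27.4% and 28.3%). GR3 cells gave 3 and 1 (12.1% and 9.87%). Gefitinib-tolerant cells gave 2 and 1 (15.2% and 13.6%), and WZ4002-tolerant cells 3 and 2 (17% and 15.6%). These counts were not tested against all genes. SPINT1, an inhibitor of the proteases that activate hepatocyte growth factor, rose in all 6. In parental cells it went from 134 ± 26.0 CPM with vehicle to 538 ± 17.9 with gefitinib, a rise of 2.01 (SE 0.23, adjusted p 9.5e-06). CD44, a cell-surface glycoprotein whose variants act as a MET co-receptor, fell in all 6, from 1502 ± 233 to 555 ± 115 CPM in gefitinib-tolerant cells, by 1.44 on the log2 scale (0.000601).

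FGFR1, a receptor of fibroblast growth factors, was higher in GR3 and the tolerant cells than in parental cells on vehicle, and rose with drug in parental, GR2 and GR3 cells. In parental cells it was at 6.65 and 5.13 CPM with vehicle, 11.04 and 8.62 with gefitinib and 9.09 and 12.2 with WZ4002. GR2 cells held 3.91 and 3.21 with vehicle and 8.45 and 7.75 with WZ4002. GR3 cells held 15.8 and 13.8 with vehicle and 39.2 and 33.3 with WZ4002. In these 3 populations the drug libraries lay above the vehicle libraries, and GR3 cells on WZ4002 had the highest values of all. Gefitinib-tolerant cells held 20.5 and 17.6 with vehicle and 15.5 and 16.3 with gefitinib. WZ4002-tolerant cells held 18.1 and 26.3 with vehicle and 16.8 and 19.5 with WZ4002, which overlap. Group means ran from 36.2 ± 4.14 CPM (SD, n = 2) in GR3 cells on WZ4002 to 3.56 ± 0.495 in GR2 cells on vehicle. The vehicle groups of the tolerant cells overlapped with each other, and all GR3 and tolerant libraries lay above all parental and GR2 libraries.

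With vehicle, FGFR1 was 1.74 higher in WZ4002-tolerant, 1.55 in gefitinib-tolerant and 1.21 in GR3 cells than in parental cells (SE 0.19 each; adjusted p 3.7e-05, 8.54e-05 and 0.000422), 3.77-, 3.23- and 2.52-fold in mean CPM. GR2 cells were 0.59 below parental cells (adjusted p 0.0485), a call that was lost without 16 of the 22 libraries in turn (adjusted p up to 0.278, without parental vehicle replicate 1). FGFR1 rose by 1.23 in GR3 and 1.00 in GR2 cells with WZ4002 (adjusted p 0.000471 and 0.000465). Parental cells gave 0.65 with gefitinib and 0.76 with WZ4002 (0.0127 and 0.00512). The differences in gefitinib- and WZ4002-tolerant cells were -0.24 and -0.26 (0.361 and 0.33). The parental rises were lost without vehicle replicate 2 (adjusted p 0.113 and 0.0569), gefitinib replicate 1 (0.125) or WZ4002 replicate 2 (0.0662). FGFR1 overlaps LETM2 on the opposite strand and 3 other genes, with which reads may be shared.

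FGFR3 had the widest range of the 9 genes, as the fold between its lowest and highest library, and rose with the inhibitors in parental, GR2, GR3 and gefitinib-tolerant cells. Parental cells held 3.52 and 3.98 CPM with vehicle, 46.0 and 30.5 with gefitinib and 28.4 and 81.4 with WZ4002. In GR2 cells it was at 0.540 and 0.520 with vehicle and 28.4 and 30.2 with WZ4002. In GR3 cells it was at 9.24 and 12.2 with vehicle and 46.2 and 40.5 with WZ4002. The drug libraries of these populations lay above all vehicle libraries, and the parental WZ4002 libraries differed widely from each other. Gefitinib-tolerant cells held 1.61 and 1.90 with vehicle and 4.18 and 5.15 with gefitinib. WZ4002-tolerant cells held 1.44 and 1.64 with vehicle and 3.63 and 3.46 with WZ4002. Tolerant cells on drug thus had levels near those of parental cells on vehicle, and their drug libraries lay above their vehicle libraries. Group means ran from 54.9 ± 37.5 CPM (SD, n = 2) in parental cells on WZ4002 to 0.530 ± 0.0141 in GR2 cells on vehicle. The 3 highest groups (parental on WZ4002, GR3 on WZ4002, parental on gefitinib) overlapped with their neighbours.

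FGFR3 rose by 4.31 in GR2 cells (SE 0.32, adjusted p 5.05e-08), 55.3-fold in mean CPM from a vehicle level of 0.530 ± 0.0141. It rose by 3.37 with WZ4002 and 3.02 with gefitinib in parental cells (14.6- and 10.2-fold; adjusted p 2.42e-06 and 6.2e-06) and by 1.93 in GR3 cells (0.000673). Gefitinib-tolerant cells gave 1.04 (adjusted p 0.0245), lost without their vehicle replicate 1 (0.16), vehicle replicate 2 (0.0556) gefitinib replicate 2 (0.178) or with limma-voom (0.0918). WZ4002-tolerant cells gave 0.84 (0.0548), and 1.16 (0.0168) with a pseudocount of 0.1. With vehicle, FGFR3 was 1.63 lower in GR2 and 1.29 higher in GR3 than in parental cells (adjusted p 0.00288 and 0.00911), and 2.93 higher in GR3 than in GR2 cells (6.07e-06). The excess in GR3 cells was lost without parental vehicle replicate 1 (0.0625) or GR3 vehicle replicate 2 (0.0737). The tolerant cells differed from parental cells by -0.79 and -0.90 (0.1 and 0.0611), and passed with a pseudocount of 0.1 (-1.06 and -1.23, adjusted p 0.0368 and 0.018) and with the term for column runs (0.0498 and 0.0272). A pseudocount of 0.1 put the GR2 deficit on vehicle at -2.61, since FGFR3 there was under 1 CPM.

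FGFR4, a receptor of FGF19 among other ligands, passed the test in 1 of the 6 drug comparisons. In parental cells it was at 7.34 and 7.17 CPM with vehicle, 3.60 and 5.90 with gefitinib and 4.56 and 2.47 with WZ4002. GR2 cells held 4.32 and 3.93 with vehicle and 3.26 and 4.17 with WZ4002. GR3 cells held 9.97 and 6.58 with vehicle and 9.83 and 9.40 with WZ4002. Parental drug libraries lay below parental vehicle libraries, and in GR2 and GR3 cells the drug and vehicle libraries overlapped. Gefitinib-tolerant cells held 4.26 and 3.25 with vehicle and 3.74 and 2.78 with gefitinib, which overlap. WZ4002-tolerant cells held 4.65 and 4.40 with vehicle and 3.02 and 2.03 with WZ4002. Group means ran from 9.62 ± 0.304 CPM (SD, n = 2) in GR3 cells on WZ4002 to 2.53 ± 0.700 in WZ4002-tolerant cells on WZ4002, and most neighbours in the order overlapped. It fell by 0.91 with WZ4002 in parental cells (SE 0.25, adjusted p 0.00755), and the other 5 drug differences lay between -0.66 and 0.22. The call of the parental WZ4002 fall was lost without parental WZ4002 replicate 2, where the difference was -0.57. It was also lost with the term for column runs (0.0584). The difference of -0.66 in WZ4002-tolerant cells (0.0532) passed with a pseudocount of 0.1 (-0.84, 0.0458), median-of-ratios scaling (0.0489) and the replicate block (0.0436). That of parental cells with gefitinib (-0.55, 0.0841) passed with the term for column runs (0.0451). With vehicle, FGFR4 was 0.80 lower in gefitinib-tolerant than in parental cells (adjusted p 0.0344), a call lost without any 1 of the 4 libraries (adjusted p 0.136, 0.115, 0.0745 and 0.183 without parental replicates 1 and 2 and gefitinib-tolerant replicates 1 and 2). It was 0.83 higher in GR3 than in GR2 cells (0.0179), lost without either GR2 vehicle library (0.0644 and 0.0981), without GR3 vehicle replicate 1 (0.155) and with the column runs (0.26, 0.585).

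Of the 18 other genes of the FGF list (ligands, co-receptors, adaptors), 12 were tested; FGF2, FGF7 and KLB were not analysed here. The numbers that rose and fell were 4 and 2 in parental cells with gefitinib (all genes tested 23.5% and 21.8%). Parental WZ4002 gave 3 and 2 (25.1% and 22.3%), and GR2 cells 3 and 2 (27.4% and 28.3%). GR3 cells gave 1 and 2 (12.1% and 9.87%). Gefitinib-tolerant cells gave 4 and 2 (15.2% and 13.6%), and WZ4002-tolerant cells 2 and 2 (17% and 15.6%). These counts were not tested against all genes. FGF19, a ligand of FGFR4, fell from 14.2 ± 1.55 to 0.260 ± 0.0707 CPM in GR2 cells (log2 -3.59, SE 0.25, adjusted p 2.25e-08). In parental cells with gefitinib it fell from 4.16 ± 0.481 to 0.0350 ± 0.00707 CPM (-2.32, 6.2e-06). The level with gefitinib rests on very few reads, in libraries of 23.6 and 36.8 M reads, so its small SD says little. On vehicle FGF19 was 1.56 higher in GR2 than in parental cells (0.00066), and it was lower in the other 4 of the 5 vehicle comparisons. Against parental cells the difference was -1.58 in gefitinib-tolerant (0.000459) and -1.75 in WZ4002-tolerant cells (0.000248). For GR3 against GR2 cells it was -2.69 (1.06e-06). GPC1, a heparan sulfate proteoglycan that assists FGF binding, rose from 51.1 ± 0.0778 to 131 ± 22.9 CPM in GR3 cells (1.33, 0.000299). On vehicle GPC1 was lower in GR3 than in parental cells, which held 124 ± 1.67 CPM (-1.27, 0.000324). It was also lower there than in GR2 cells, which held 191 ± 0.735 (-1.89, 4.09e-06).

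EPHA2, a receptor of ephrin-A ligands, fell in all 6 drug comparisons, and GR2 cells held the most EPHA2 on vehicle. In parental cells EPHA2 was at 161 and 178 CPM with vehicle, 38.1 and 44.4 with gefitinib and 41.2 and 59.6 with WZ4002. GR2 cells held 374 and 361 with vehicle and 28.2 and 32.7 with WZ4002. The GR2 libraries thus were both the highest and the lowest of the 22. GR3 cells held 86.7 and 140 with vehicle and 36.8 and 63.4 with WZ4002. Gefitinib-tolerant cells held 129 and 128 with vehicle and 59.1 and 53.7 with gefitinib. WZ4002-tolerant cells held 132 and 114 with vehicle and 52.3 and 60.7 with WZ4002. Every vehicle library lay above every drug library. Group means ran from 368 ± 9.55 CPM (SD, n = 2) to 30.5 ± 3.18, both in GR2 cells, and the vehicle groups of GR3 and the tolerant cells overlapped with their neighbours. EPHA2 fell by 3.55 in GR2 cells (SE 0.24, adjusted p 1.74e-08), 12.1-fold in mean CPM. In parental cells it fell by 2.01 with gefitinib and 1.75 with WZ4002 (adjusted p 1.32e-05 and 3.78e-05). The falls in GR3, gefitinib-tolerant and WZ4002-tolerant cells were 1.17, 1.18 and 1.11 (0.00272, 0.00251 and 0.00305). With vehicle, GR2 cells were 1.12 above parental cells (0.00463) and GR3 cells 1.73 below GR2 cells (4.78e-05). With the term for column runs the first of these was 0.65 (0.171). Both GR2 vehicle libraries lie in the last run and the GR2 WZ4002 libraries in earlier ones, so the GR2 fall lies across runs too. An antisense gene overlaps EPHA2, and reads may be shared with it.

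Of the 19 other genes of the ephrin list, 14 were tested; EPHA3 was not analysed here. The numbers that rose and fell were 2 and 5 in parental cells with gefitinib (all genes tested 23.5% and 21.8%). Parental WZ4002 gave 3 and 5 (25.1% and 22.3%), and GR2 cells 5 and 2 (27.4% and 28.3%). GR3 cells gave 3 and 2 (12.1% and 9.87%). Gefitinib-tolerant cells gave 2 and 3 (15.2% and 13.6%), and WZ4002-tolerant cells 2 and 4 (17% and 15.6%). These counts were not tested against all genes. EFNA1, a ligand of EPHA2, rose in all 6, and the ligand EFNB2 fell in all 6. EFNA1 went from 11.2 ± 0.523 to 109 ± 7.70 CPM in GR2 cells (log2 3.17, SE 0.20, adjusted p 1.1e-08) and from 15.6 ± 0.721 to 83.0 ± 1.36 in parental cells with gefitinib (2.34, 9.1e-07). EFNB2 went from 200 ± 15.2 to 8.67 ± 3.55 CPM in GR2 cells (-4.43, 5.05e-08) and from 25.7 ± 3.03 to 3.84 ± 1.64 in GR3 cells (-2.50, 0.000111). On vehicle EPHA4 was lower in GR3 (by 1.61, 0.000156) and higher in gefitinib-tolerant cells (by 1.12, 0.00325) than in parental cells.

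**Figure D2:**
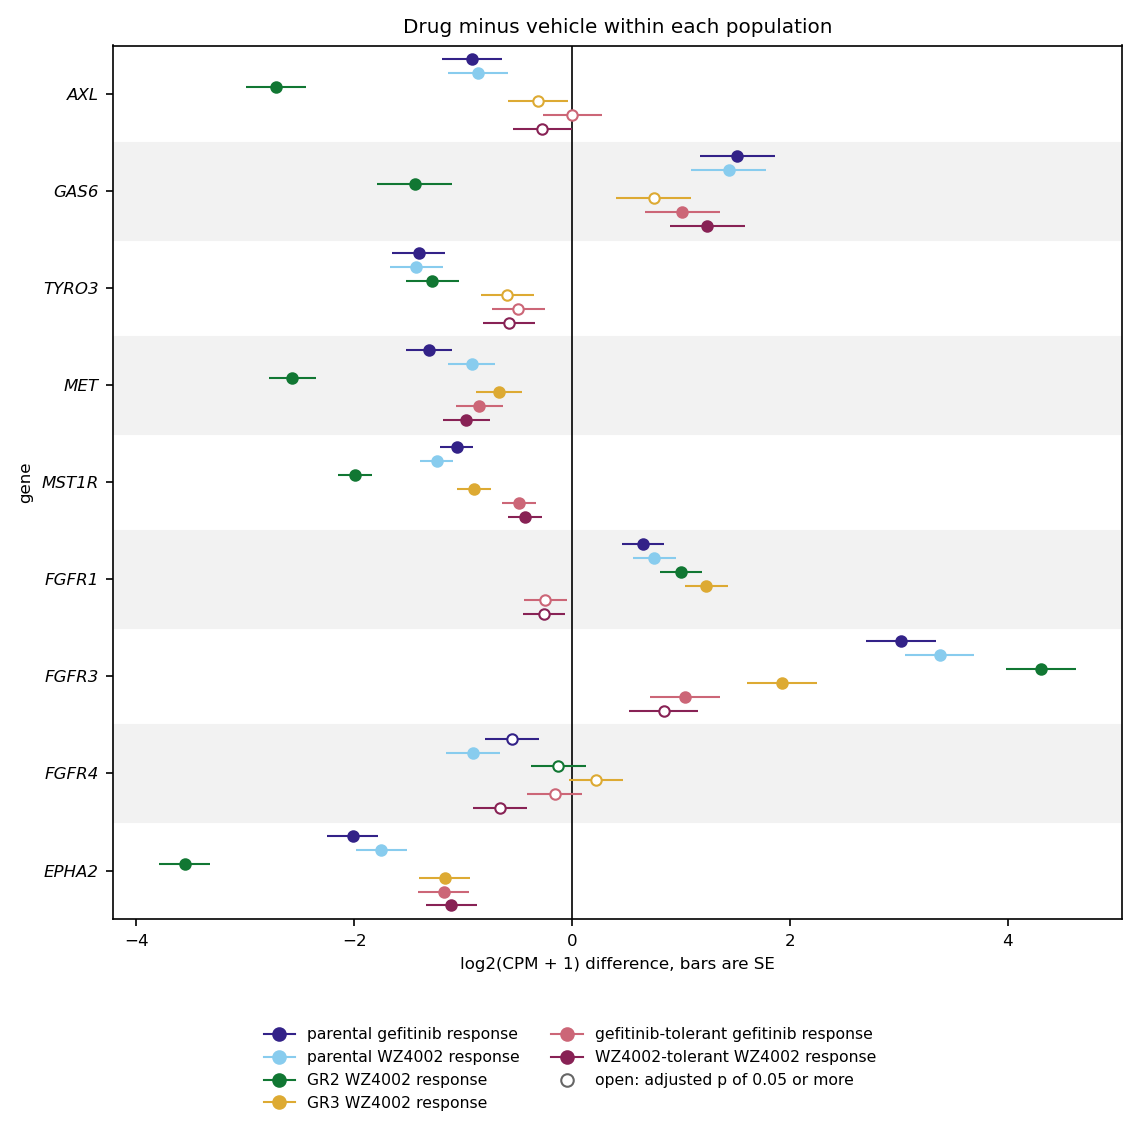
Drug minus vehicle difference of log2(CPM + 1) for each gene in each population (points, bars are SE, filled where the adjusted p is under 0.05). EPHA2, MET and MST1R lie left of 0 in all 6 comparisons, and FGFR3 right of 0.

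Between the inhibitors, parental cells on WZ4002 and on gefitinib gave no call among the 9 genes or among all genes (0% called; at an unadjusted p under 0.05, 525 genes and 0 of the 9; limma-voom called 0 genes). The largest of the 9 differences were MET at 0.39 (95% interval -0.06 to 0.85), FGFR4 at -0.36 (-0.89 to 0.17) and FGFR3 at 0.35 (-0.33 to 1.03), which leave room for sizeable differences. Without parental WZ4002 replicate 1 the FGFR3 difference was 1.10 (adjusted p 0.018).

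Between vehicle-treated populations, 3 of the 9 genes were higher and 2 lower in GR2 than in parental cells (all genes 8.98% and 7.76%, together 16.7%), 4 and 1 in GR3 (9.77% and 11.1%, together 20.8%), 3 and 1 in gefitinib-tolerant (9.39% and 9.64%, together 19%) and 4 and 0 in WZ4002-tolerant cells (8.72% and 9.73%, together 18.4%). These 4 comparisons share the parental vehicle libraries. GR3 against GR2 gave 5 higher (AXL, GAS6, FGFR1, FGFR3 and FGFR4) and 2 lower (MET and EPHA2), beside 15.6% and 17.5% of all genes (together 33.1%). AXL, GAS6 and FGFR1 were each higher in GR3, gefitinib-tolerant and WZ4002-tolerant cells than in parental cells. MET and EPHA2 lay in opposite directions in GR2 and GR3 cells: MET was 0.88 and -1.05 from parental cells, and EPHA2 1.12 and -0.61, the last with an adjusted p of 0.0776.

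**Figure D3:**
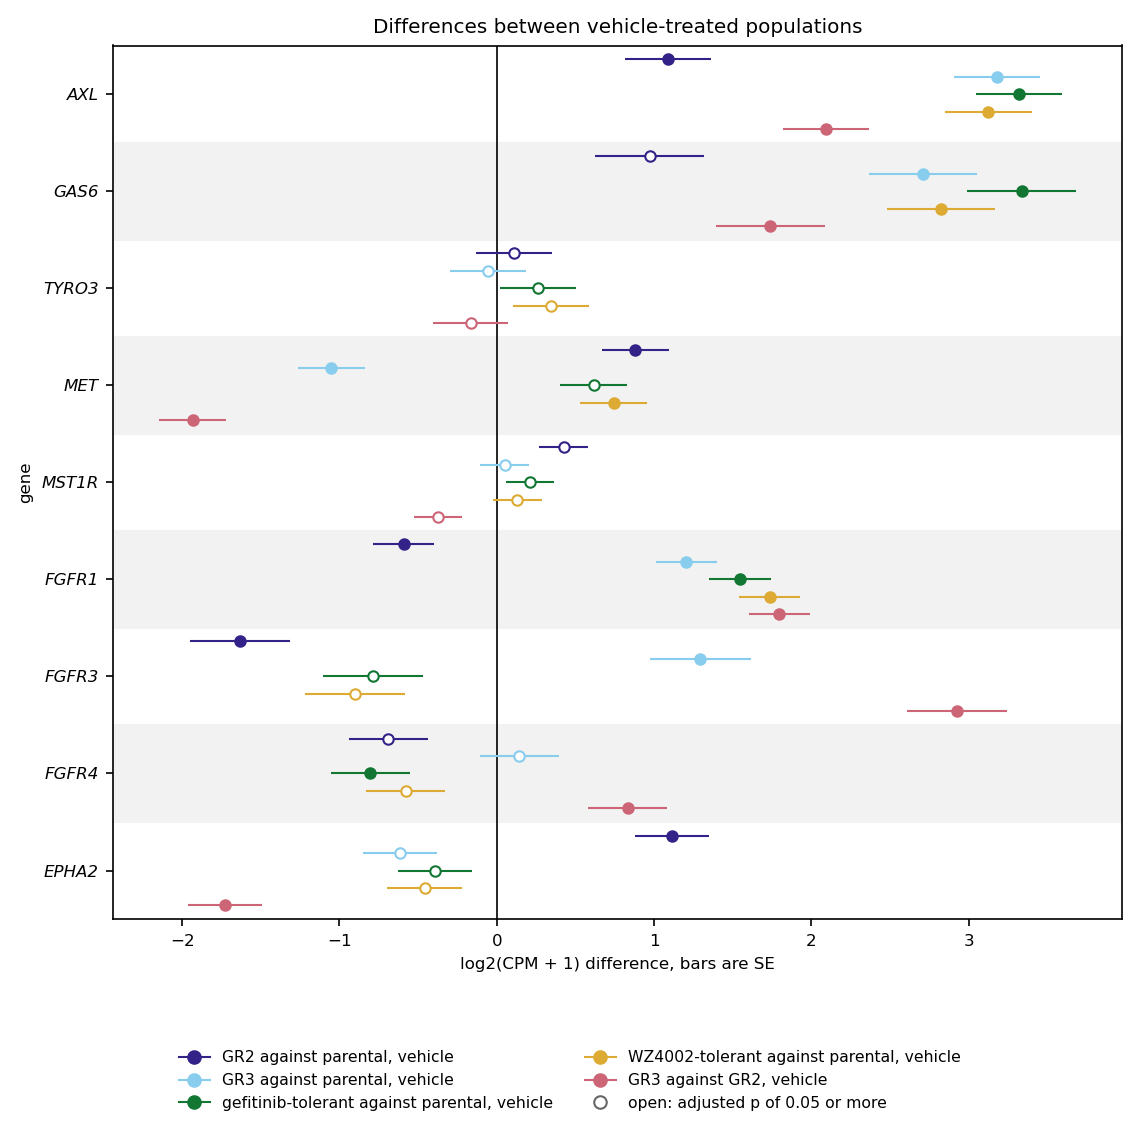
Difference of log2(CPM + 1) between vehicle-treated populations for each gene (points, bars are SE, filled where the adjusted p is under 0.05). AXL, GAS6 and FGFR1 lie right of 0 in GR3 and tolerant cells against parental cells.

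Whether drug responses differed between populations was tested on the difference itself. The WZ4002 response of GR2 cells was lower than that of parental cells for 4 of the 9 genes and higher for 0 (all genes 3.45% and 3.34%). These were GAS6 at -2.88 (SE 0.49, adjusted p 0.00322), which rose in parental and fell in GR2 cells, and AXL at -1.86, EPHA2 at -1.80 and MET at -1.64 (adjusted p 0.0101, 0.00501 and 0.00493), which fell further in GR2 cells. The AXL difference was lost without GR2 WZ4002 replicate 2 (-1.46, adjusted p 0.0536), and those of GAS6, MET and EPHA2 with the term for column runs (-2.09, -1.37 and -1.05). The FGFR3 difference between GR2 and parental responses was 0.93 (adjusted p 0.241). It was 0.19 without parental WZ4002 replicate 1, and it passed without parental WZ4002 replicate 2 (1.68, adjusted p 0.00461) and with a pseudocount of 0.1 (1.90, adjusted p 0.0259). GR3 against GR2 responses gave 5 higher and 1 lower (all genes 6.78% and 6.8%). AXL (2.41), EPHA2 (2.38), GAS6 (2.19), MET (1.90) and MST1R (1.09) had a higher WZ4002 difference in GR3 than in GR2 cells, and FGFR3 (-2.38) rose less there, with adjusted p of 0.000865, 0.000312, 0.00798, 0.000783, 0.00393 and 0.00279 in that order. The GAS6 value was 1.66 (adjusted p 0.0731) with the column runs.

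GR3 and parental WZ4002 responses differed for 0 of the 9 genes (1.29% of all genes, 0.633% higher and 0.659% lower), and 3 of the 9 had an unadjusted p under 0.05; limma-voom called 0. The FGFR3 difference was -1.45 (adjusted p 0.123). Without parental WZ4002 replicate 1, FGFR3 (-2.19, adjusted p 0.0011) and FGFR4 (1.47, 0.0306) passed, and without GR3 vehicle replicate 1 TYRO3 (1.28, 0.0209) and FGFR4 (1.40, 0.0384) did. In gefitinib-tolerant against parental cells the gefitinib response differed for 1 of the 9 genes, FGFR3 (all genes 2%), at -1.98 (SE 0.45, adjusted p 0.0322), a call lost without 9 of the 22 libraries in turn (adjusted p up to 0.156, without parental gefitinib replicate 1). In WZ4002-tolerant against parental cells the WZ4002 response was higher for 1 gene and lower for 2 (all genes 2.1% and 2.4%). FGFR3 rose less in tolerant cells, by -2.53 (adjusted p 0.00603), FGFR1 gave -1.01 (0.049) and MST1R 0.81 (0.0459). With limma-voom the FGFR3 and FGFR1 calls were lost (-2.42 and -1.05, adjusted p 0.0992 and 0.0669). The FGFR1 call was lost without 18 of the 22 libraries in turn (adjusted p up to 0.156, without WZ4002-tolerant vehicle replicate 2) and the MST1R call without 17 (adjusted p up to 0.171, without WZ4002-tolerant WZ4002 replicate 2). The parental libraries enter all of these differences except GR3 against GR2.

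**Figure D4:**
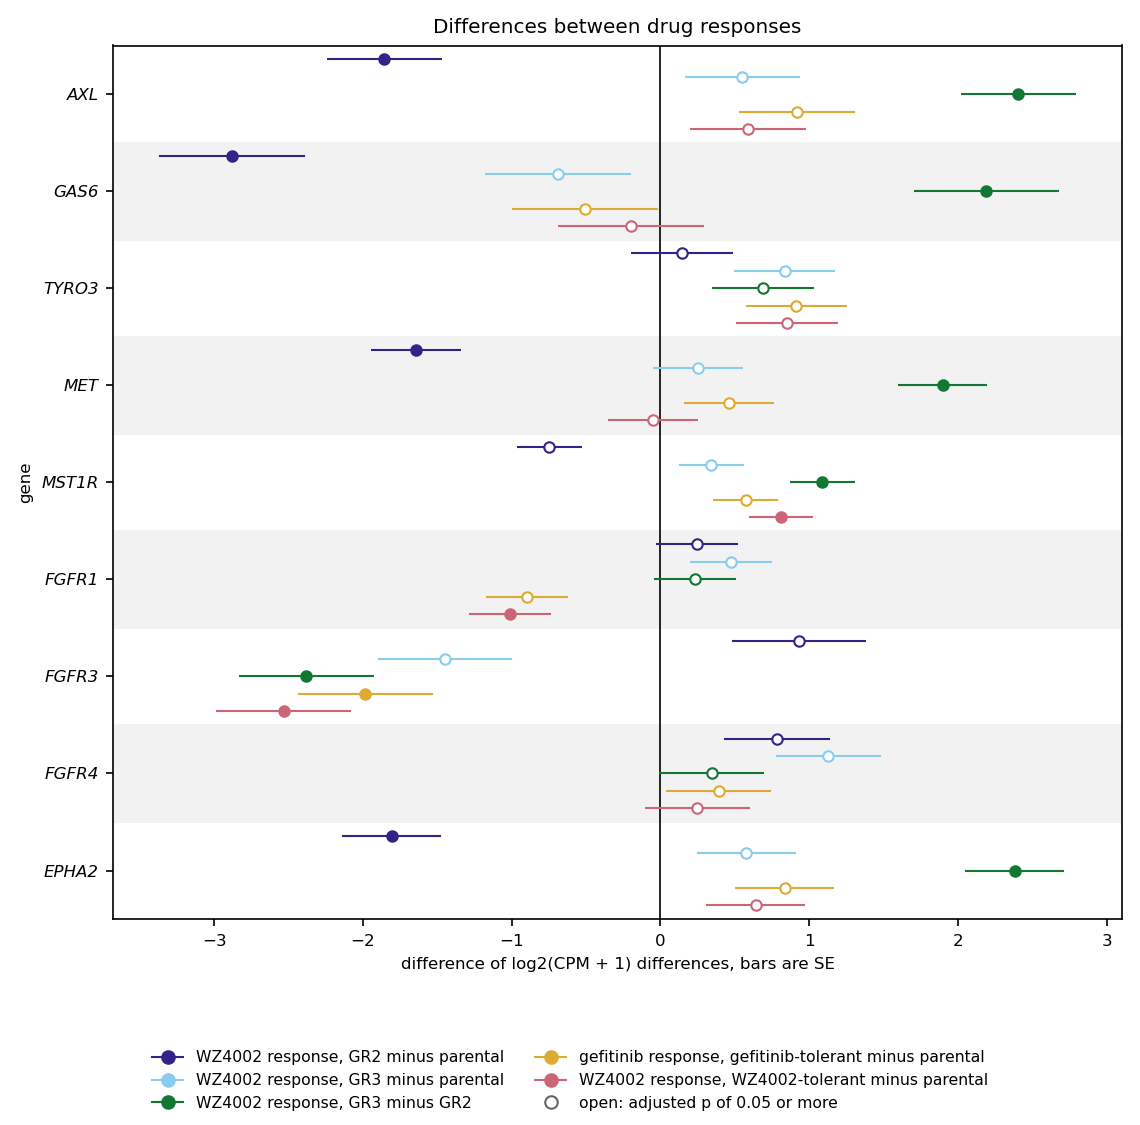
Difference between drug responses of 2 populations for each gene, on the log2(CPM + 1) scale (points, bars are SE, filled where the adjusted p is under 0.05). GAS6 has the largest negative difference of GR2 against parental cells, and FGFR3 the largest negative differences of tolerant cells.

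Per length, in CPM per kilobase of merged exons, EPHA2 and MET led in parental cells on vehicle, at 42.7 and 20.6. MST1R followed at 5.60, AXL at 2.88, FGFR4 at 2.27, TYRO3 at 1.91, GAS6 at 1.63, FGFR1 at 0.904 and FGFR3 at 0.841. In gefitinib-tolerant cells on vehicle AXL, at 31.0 CPM per kilobase, stood beside MET at 31.3 and EPHA2 at 32.4. In GR3 cells on vehicle AXL, at 27.6, stood with EPHA2 at 28.6 and above MET at 9.88. Under WZ4002 FGFR3 reached 12.3 in parental cells, beside 12.7 for EPHA2 and 11.004 for MET. The FGFR3 mean rests on libraries at 28.4 and 81.4 CPM, so without WZ4002 replicate 2 it is 28.4 CPM in place of the mean of 54.9 ± 37.5 (SD, n = 2).

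The genes whose log2 levels followed each member most closely over the 22 libraries were found by Pearson correlation, as a description; groups of 2 libraries share treatments, so points are not independent. For AXL they were NFIX, PARVA and HYCC1 (r = 0.96, 0.95 and 0.95). For GAS6 they were GAS6-DT, CDK14 and RTKN2 (r = 0.95, 0.95 and 0.93), the first of which is its divergent transcript. TYRO3 was followed by RAD54L, MCM10 and UBE2T (r = 0.98, 0.98 and 0.98), which serve DNA replication and repair. MET was followed by SMTN, MRM2 and EFNB2 (r = 0.97, 0.96 and 0.94), the last of which is an ephrin ligand. MST1R came with ITGB5, ITGA6 and CDC6 (r = 0.96, 0.96 and 0.95), of which the first pair are integrin subunits. FGFR1 came with WNT9A, CAVIN1 and DEGS1 (r = 0.92, 0.90 and 0.88), FGFR3 with METTL7A, TNS1 and ASS1P14 (r = 0.97, 0.96 and 0.96), FGFR4 with RBBP4, DDX41 and LRP4 (r = 0.90, 0.89 and 0.88) and EPHA2 with BCL2L1, SIRPB2 and HSPA13 (r = 0.97, 0.96 and 0.96). Among the 9 genes, AXL and GAS6 correlated at 0.85, TYRO3 and MST1R at 0.90, and FGFR3 and MET at -0.90.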

How the data were processed

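Polyadenylated RNA of 22 libraries was sequenced after a directional library preparation, per the labels' protocols. The submitters' processing notes name STAR, HTSeq and the build hg19, with no roles; versions and the strand setting are not given in the sources used here. The authors deposited 1 table of CPM, rounded to 2 decimals, for 17165 genes, with 0 values of 0, so genes silent in any library were not analysed here. CPM steps of 1 read gave 23.6 to 49.6 M reads per library; at least 99.988% of values were whole multiples within 0.005 CPM, against at most 49.6% by chance, and listed genes held 54.6 to 64.2% of the reads.

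Symbols came from a gene table matched by Ensembl identifier. The 15485 genes that reached 1 CPM in 2 or more libraries were tested. A model of 11 group means was fitted to log2(CPM + 1) with limma 3.58.1 in R 4.3.3, with empirical Bayes moderation and a variance trend (degrees of freedom: 11 residual, 4.80 prior at the median), for 17 contrasts, two-sided, adjusted within each contrast by the Benjamini-Hochberg method. All 11 groups share 1 estimate of the spread, since each has 2 libraries. The fit was also run on simulated data with independent libraries and few changed genes, unlike these data. No conclusion is drawn from that run here. Exon lengths and overlaps came from GENCODE v29, used for gene models only. The 2 libraries of a group differed with a chi-square per gene of 3.48 (GR2 vehicle) to 87.5 and were counted as 2 samples.

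The rule for named genes took all 9 members in every comparison, the 3 genes most correlated with each, and up to 4 genes of a 78-gene pathway list per comparison. SPINT1, CD44, EFNA1, EFNB2, INSR, MERTK and PROS1 were also counted over the drug comparisons after their values were seen. So were MERTK, PROS1 and FGF19 over the vehicle comparisons. EFNA4 and PLXNB1, which the rule did not name, rose in all 6 drug comparisons too. The members and lists were chosen with earlier results of these data known. The alternatives tried were leaving out each library, the replicate number as a block, a pseudocount of 0.1, scaling by median of ratios and no filter; a term for 3 runs of table columns and limma-voom on the recovered reads were added after seeing the data. The runs are stretches of the column order, and what they stand for is not given.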

Additional observations from a re-analysis of the deposited data

Results flagged for a closer look

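In 14 of 45 differences between drug responses of 2 populations, the test of the difference itself passed. Of all genes tested, 6.79% passed for GR2 minus parental, 1.29% for GR3 minus parental and 13.6% for GR3 minus GR2 responses. The shares were 2% for gefitinib-tolerant minus parental and 4.49% for WZ4002-tolerant minus parental responses. For GR2 minus parental WZ4002 responses, the difference was -2.88 on the log2 scale for GAS6, -1.86 for AXL, -1.8 for EPHA2 and -1.64 for MET. GAS6 rose in parental and fell in GR2 cells, and the other 3 fell in both, by more in GR2 cells. For GR3 minus GR2 WZ4002 responses, the difference was 2.41 for AXL, 2.38 for EPHA2, 2.19 for GAS6, 1.9 for MET, 1.09 for MST1R and -2.38 for FGFR3. These are differences of responses, not of levels under WZ4002. The FGFR3 response to gefitinib differed by -1.98 between gefitinib-tolerant and parental cells. That call was lost with a pseudocount of 0.1, without the filter and with limma-voom (limma adjusted p 0.0504, 0.0521 and 0.291). The WZ4002 responses of WZ4002-tolerant minus parental cells gave -2.53 for FGFR3, -1.01 for FGFR1 and 0.81 for MST1R. The FGFR3 and FGFR1 calls were lost with limma-voom. With 1 library left out, FGFR1 ran from -1.27 to -0.75 and MST1R from 0.55 to 1.07. Several of the flagged calls depended on single libraries or on the term for column runs, as given above. Groups of 2 libraries were too small to look for outlying libraries.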

How the results depend on the processing

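Of 78 calls of the 9 genes over the 17 comparisons, 55 were kept without each library in turn and 23 were lost without at least 1, as given beside each gene. The fit on recovered reads with edgeR was not run, because the rounded values were not accepted as counts. Where leaving out 1 library moved the number of the 9 genes called by over 1.5 times, it ran from 1 to 5 in the gefitinib-tolerant response, from 2 to 6 in the WZ4002-tolerant response, from 0 to 1 in the comparison of the inhibitors, from 2 to 7 in the GR2 against parental vehicle comparison. It also ran from 0 to 2 in the GR3 minus parental response, from 0 to 1 in the gefitinib-tolerant minus parental response, from 1 to 3 in the WZ4002-tolerant minus parental response. In the other comparisons it stayed within 1.5 times. The difference of gefitinib responses between gefitinib-tolerant and parental cells gave 0 with a pseudocount of 0.1, 0 without the filter and 0 with limma-voom. The WZ4002-tolerant minus parental difference gave 1 with limma-voom, which lost FGFR3 and FGFR1. With the term for column runs, GR2 against parental on vehicle gave 2 of the 9 genes (1449 of all genes against 2591) and GR2 minus parental responses 1 (338 against 1051); the cause was not tested. Calls over all genes also moved for GR3 minus parental responses (200 as reported, 124 with the pseudocount of 0.1, 88 with limma-voom), gefitinib-tolerant minus parental (310, 873 with column runs, 186 with limma-voom) and WZ4002-tolerant minus parental (696, 1479 with column runs). With 1 library left out the calls over all genes, with the number as reported in parentheses, ran from 4525 to 7358 (7017) in the parental gefitinib response, 4840 to 7740 (7348) in the parental WZ4002 response, 1729 to 3726 (3406) in the GR3 response, 976 to 4977 (4446) in the gefitinib-tolerant response, 1401 to 5484 (5049) in the WZ4002-tolerant response, 0 to 343 (0) in the comparison of the inhibitors, 769 to 2925 (2591) in the GR2 against parental vehicle comparison, 1827 to 3547 (3228) in the GR3 against parental vehicle comparison, 1203 to 3310 (2947) in the gefitinib-tolerant against parental vehicle comparison, 1300 to 3252 (2856) in the WZ4002-tolerant against parental vehicle comparison, 2995 to 5425 (5132) in the GR3 against GR2 vehicle comparison, 328 to 1282 (1051) in the GR2 minus parental response, 46 to 1059 (200) in the GR3 minus parental response, 1005 to 2888 (2103) in the GR3 minus GR2 response, 90 to 485 (310) in the gefitinib-tolerant minus parental response, 174 to 1076 (696) in the WZ4002-tolerant minus parental response. Differences that passed no test changed sign under some settings, with the cause not tested: AXL in gefitinib-tolerant cells was -0.025 with median-of-ratios scaling, and with column runs FGFR3 and EPHA2 between the inhibitors were -0.027 and -0.025, FGFR4 in GR2 minus parental -0.089 and FGFR1 in GR3 minus GR2 -0.017. Limma-voom put TYRO3 in GR3 against parental and against GR2 vehicle cells at 0.055 and 0.047, and MET in WZ4002-tolerant minus parental at 0.025. Left-out libraries also turned the sign, over these ranges: In the GR2 response, FGFR4 -0.27 to 0.014. In the GR3 response, FGFR4 -0.048 to 0.49, AXL -0.73 to 0.10. In the gefitinib-tolerant response, AXL -0.28 to 0.29, FGFR4 -0.32 to 0.0036. In the WZ4002-tolerant response, FGFR1 -0.51 to 0.0046. In the comparison of the inhibitors, GAS6 -0.45 to 0.29, TYRO3 -0.18 to 0.14, FGFR1 -0.093 to 0.30, MST1R -0.44 to 0.079, AXL -0.20 to 0.30, FGFR3 -0.39 to 1.10. In the GR2 against parental vehicle comparison, TYRO3 -0.10 to 0.32. In the GR3 against parental vehicle comparison, TYRO3 -0.51 to 0.39, MST1R -0.034 to 0.14, FGFR4 -0.12 to 0.41. In the GR3 against GR2 vehicle comparison, TYRO3 -0.62 to 0.28. In the GR2 minus parental response, TYRO3 -0.068 to 0.36. In the GR3 minus parental response, MET -0.10 to 0.60. In the WZ4002-tolerant minus parental response, MET -0.40 to 0.30, GAS6 -0.71 to 0.32, FGFR4 -0.092 to 0.59. The replicate number as a block added 5 calls and lost none of the 78. The added calls were FGFR3 0.84 and FGFR4 -0.66 in WZ4002-tolerant cells and MST1R -0.75 in GR2 minus parental responses. Against parental vehicle cells they were EPHA2 -0.61 in GR3 and MET 0.62 in gefitinib-tolerant cells. With the block, 344 genes were called in GR3 minus parental responses. Across genes, the replicate 1 minus replicate 2 differences of 2 groups correlated above 0.1 in 20 of 55 pairs of groups. Between vehicle and drug groups of 1 population, r was 0.36 (parental gefitinib), -0.13 (parental WZ4002) and -0.0044 (GR2). It was 0.36 in GR3, 0.63 in gefitinib-tolerant and -0.049 in WZ4002-tolerant cells. The link thus differed between populations, and the numbers were not taken as pairs. Depth limits FGFR3 in GR2 cells on vehicle most, at 18 reads in 1 library.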

Other observations

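Further receptor kinases, adaptors and a sheddase changed with the inhibitors, INSR, ROR1, CBLB, GAB2 and ADAM10 among them. Of 12 other receptor kinases listed as bypass receptors 6 were tested, and PDGFRA, ROR2 and RET were not analysed here. INSR, the insulin receptor, rose in all 6 drug comparisons, from 14.4 ± 1.25 to 103 ± 23.7 CPM (SD, n = 2) in GR2 cells (log2 2.74, SE 0.20, adjusted p 4.95e-08) and from 20.7 ± 1.95 to 75.8 ± 20.1 in parental cells with gefitinib (1.80, 9.68e-06). ROR1, an orphan receptor kinase, went from 40.4 ± 16.0 to 10.7 ± 1.19 CPM in WZ4002-tolerant cells (-1.77, 0.000562). Of 10 shared adaptors, 3 rose and 2 fell in parental cells with gefitinib (all genes 23.5% and 21.8%), 4 and 2 with WZ4002 (25.1% and 22.3%), 2 and 3 in GR2 (27.4% and 28.3%), 3 and 0 in GR3 (12.1% and 9.87%), 4 and 5 in gefitinib-tolerant (15.2% and 13.6%) and 4 and 4 in WZ4002-tolerant cells (17% and 15.6%). CBLB, a ubiquitin ligase that turns receptors over, rose from 14.8 ± 5.09 to 55.1 ± 5.29 CPM in gefitinib-tolerant cells (1.86, 0.000747). GAB2, a docking protein for receptor kinases, rose from 22.2 ± 8.27 to 77.0 ± 13.4 CPM in GR3 cells (1.79, 0.000129). ADAM10, a protease that sheds receptors and ligands from the cell surface, rose there from 153 ± 10.2 to 263 ± 11.1 CPM (0.77, 0.000171).

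On vehicle, EPHB1 was lower than in parental cells in GR2, GR3, gefitinib-tolerant and WZ4002-tolerant cells (log2 -1.47, -1.60, -1.54 and -1.47; adjusted p 0.0109, 0.00491, 0.00708 and 0.00956), and EPHB6 in GR3 cells (-0.90, 0.0174); both were named after their values were seen. EPHA1 went from 52.0 ± 7.59 CPM in parental cells to 26.0 ± 1.60 in GR3, 26.5 ± 1.60 in gefitinib-tolerant and 26.9 ± 2.81 in WZ4002-tolerant cells (log2 -0.97, -0.94 and -0.92; adjusted p 0.000143, 0.000277 and 0.000392). EPHB3 was at 10.2 ± 0.799 CPM in parental and 2.48 ± 0.255 in GR2 cells (-1.69, 0.000864), and was lower in the gefitinib- and WZ4002-tolerant cells too (-1.61 and -1.45, 0.000976 and 0.00226). EPHB4 was at 52.2 ± 8.55 CPM in parental and 25.5 ± 0.276 in GR2 cells (-0.99, 0.000834). These comparisons share the parental vehicle libraries.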
